A study of Sorghum bicolor with 12 samples.

Results

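Non-specific lipid-transfer proteins (nsLTPs) are small secreted plant proteins folded around a hydrophobic cavity that can hold fatty acids and other lipids, with conserved cysteines joined in disulfide bridges. Soluble members are found in the cell wall and the cuticle layer of the epidermis, and members with a glycosylphosphatidylinositol (GPI) anchor sit on the outer face of the plasma membrane, where Arabidopsis LTPG1 takes part in export of cuticular wax. Expression of nsLTP genes in leaves is known to respond to water deficit and abscisic acid in several plants, and leaf nsLTPs are also studied in defence.

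The genes described here are those whose product name in the deposited gene table, before its first separator, holds the words non-specific lipid transfer protein, with a hyphen or a space. The rule found 48 genes of 33897 in the table. They were followed in leaf RNA of Sanchisan (SCS) and of Jinliang 5 (JL), cultivars of Sorghum bicolor, under normal water supply (control) or under drought. The 4 groups, SCS control, SCS drought, JL control and JL drought, hold 3 libraries each, 12 in all. No transgene or allele is named in the labels. The labels do not say how old the plants were, how long the drought lasted or whether libraries came from separate plants, so the p-values measure the spread between these libraries, which may be technical. Levels are counts per M library counts (M for mega) after TMM scaling (CPM), and levels of different genes are compared only as CPM per kilobase of the gene length in the deposited table. No sequences of these genes were used here.

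Library totals ranged from 15.04 to 18.36 M counts. The leaf label was checked against marker genes. The 29 mesophyll markers were picked by the names of C4 leaf enzymes. They summed to 33914 to 75096 CPM in SCS control and 5240 to 14304 CPM in SCS drought. In JL control they summed to 93365 to 136151 CPM and in JL drought to 99297 to 123645 CPM. The 4 bundle sheath markers summed to 2156 to 6108, 428 to 847, 4382 to 12559 and 5375 to 14770 CPM in the same order. Root markers, a list of 4 genes, summed to at most 1.5 CPM in any library and 2 of them were at 0 throughout. Pollen, anther and tapetum names, a list of 45 genes with 15 at 0 throughout, summed to 195 to 469 CPM over all libraries. SCS drought 3 and JL drought 2 stood apart from the other libraries of their groups in the level of the nsLTP genes, and counts of calls are given with and without them, as are the values of genes that moved most.

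Of the 48 genes, 37 had a count in at least 1 library, 11 had none, and 22 passed the filter on low counts. The number of nsLTP genes with a count was 25 to 27 per library in SCS control, 28 to 30 in SCS drought, 22 to 25 in JL control and 23 to 25 in JL drought. Among the 37 genes, the highest group mean was in SCS drought for 23, in SCS control for 5, in JL control for 4 and in JL drought for 5. Over all 28169 genes with a count the share highest in SCS drought was 32.3%. Of the 15 genes with a count that failed the filter, whose totals reached at most 88 counts, 8 had their highest mean in SCS drought.

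**Figure D1:**
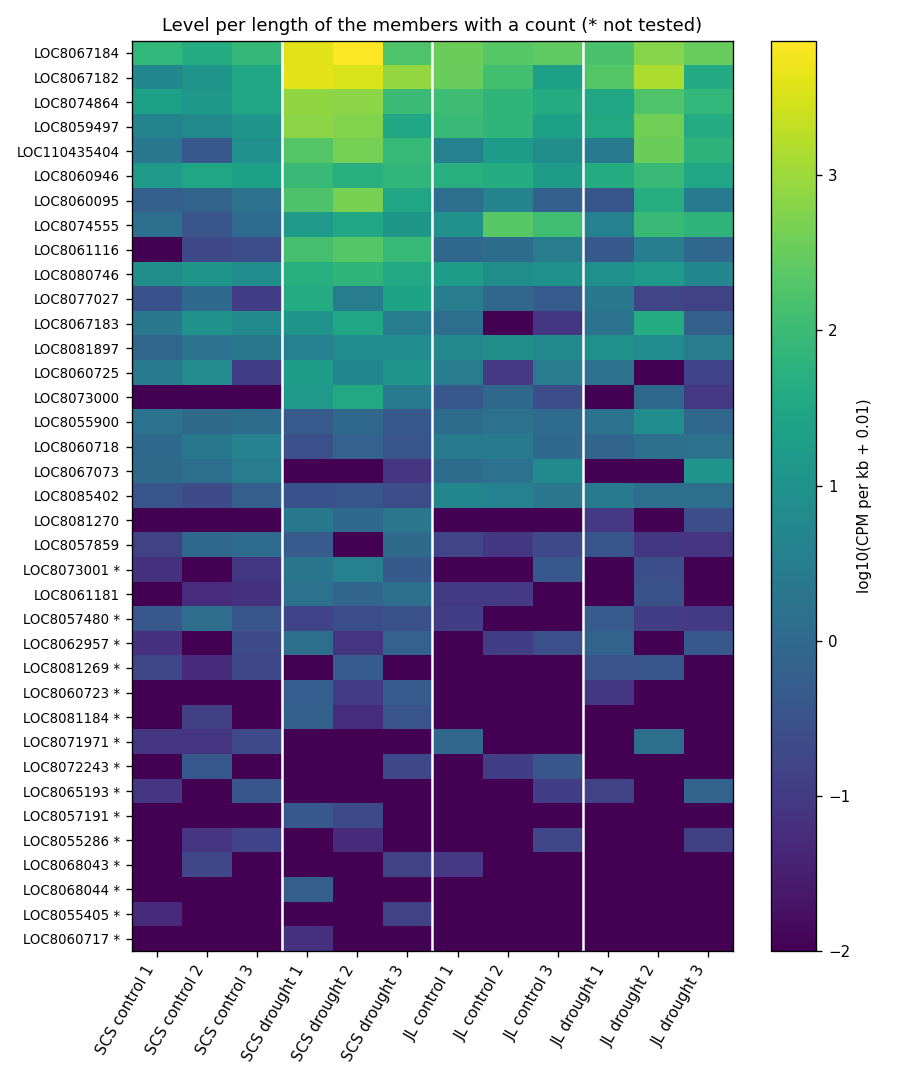
Level per length of the 37 genes with a count, in each of the 12 libraries, as log10 of CPM per kilobase plus 0.01, with genes ordered by total count and an asterisk on the 15 that were not tested. LOC8067184 and LOC8067182 head the order, and most upper rows are brightest in the SCS drought libraries.

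The family took 0.0186% to 0.0217% of all counts in SCS control and 0.187% to 1.75% in SCS drought. In JL it took 0.0495% to 0.0743% in control and 0.0413% to 0.217% in drought. Summed over the 48 genes, the level was 152, 143 and 214 CPM in SCS control 1, 2 and 3, and 10084, 13921 and 1330 CPM in SCS drought 1, 2 and 3. All SCS drought libraries lay above all SCS control libraries, and drought 3 was far below the other two. The sum was 981, 750.1 and 535 CPM in JL control and 485, 2877 and 649.5 CPM in JL drought. There the groups overlapped, with JL drought 2 above and the other drought libraries within or just below the range of control.

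**Figure D2:**
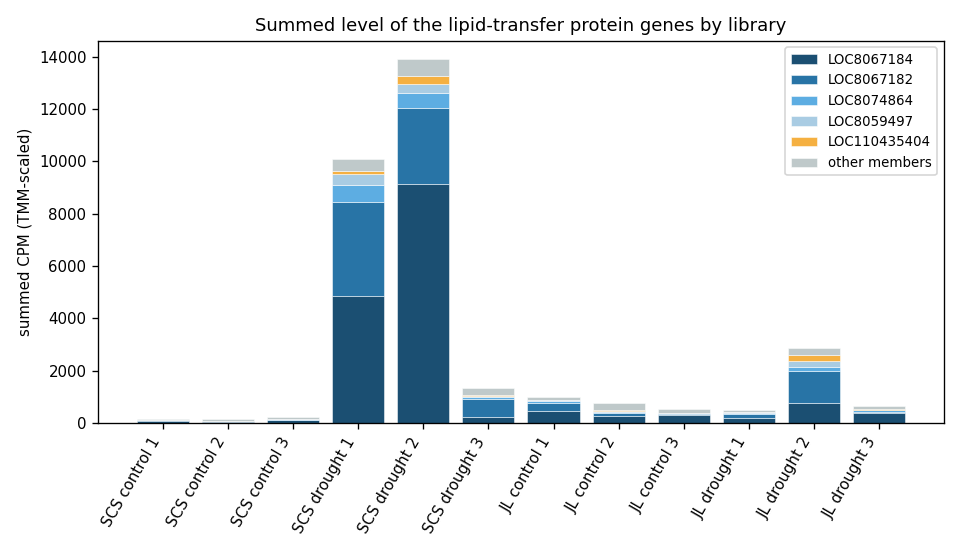
Summed CPM of the 48 genes in each library, with the 5 genes of highest total count in colour and all others in grey. The bars of SCS drought 1 and 2 reach 10084 and 13921 CPM, and that of JL drought 2 (2877 CPM) is the tallest among the JL libraries.

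Most of these counts came from genes that lie side by side on chromosome 8. The 5 genes LOC8074864, LOC8067182, LOC8067183, LOC8067184 and LOC8067185 lie within 44.5 kb on chromosome 8 (2735511 to 2779995), all on the minus strand. They held 58.4% to 76.7% of the family's counts in SCS control, 75.5% to 90.9% in SCS drought, 57.7% to 85.1% in JL control and 74.0% to 79.6% in JL drought. LOC8067184, whose closest database match in the deposited table is sorghum LTP1, had the highest mean level per length over the 12 libraries, at 1134 CPM per kilobase. LOC8067182, matched to a rice nsLTP, followed with 882 and LOC8074864, matched to wheat LTP3, with 182 CPM per kilobase. LOC8059497 on chromosome 1 (79877267 to 79877844), a 2P-type nsLTP, stood at 164 CPM per kilobase. LOC110435404 on chromosome 5 (15112022 to 15113465) stood at 98.6 CPM per kilobase. These means rest mostly on SCS drought, and the order differed by group. In JL drought the mean of LOC8067182 (549.6) was above that of LOC8067184 (365 CPM per kilobase). In JL control LOC8074555 came next after this pair with 116, and in SCS control LOC8060946 came next after LOC8067184 with 21.4, beside LOC8074864 with 21.1 and LOC8067182 with 16.6 CPM per kilobase.

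The first comparison asked how the family responded to drought in SCS. Of the 22 tested genes, 12 rose and 0 fell in drought by edgeR's quasi-likelihood test at an adjusted p below 0.05. Over all 20873 tested genes, 4.09% were called higher and 5.41% lower. At an unadjusted p below 0.05, 15 members were higher (12.2% of all tested genes) and 2 lower (14.0%), and DESeq2 called 15 higher and 1 lower, among 4065 genes called in all (1984 by edgeR). A gene that is high in 1 group passes the filter through that group, so the count describes the 22 tested genes and not the family of 48. Their median log2 fold change was 4.53, against -0.07 over all tested genes, and was also 4.53 with the 2 genes without control counts set at their lower bounds. The other members ranged from -5.48 to 9.99. Leaving out SCS control 1, 2 or 3 left 3, 4 or 2 members called, and leaving out SCS drought 1, 2 or 3 left 5, 8 or 11, in fits that have fewer libraries. Over all tested genes the same fits called 808, 1043 and 533, and 617, 1207 and 2619, against 1984 with all libraries. In bulk RNA, more cells that express a gene and more RNA per cell cannot be told apart.

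Among the genes of the chromosome 8 cluster, 3 rose in SCS. LOC8067184 stood at 92.4, 54.1 and 102 CPM in SCS control and at 4841, 9117 and 215 CPM in SCS drought. The groups did not overlap, and the lowest drought library was drought 3. Its log2 fold change was 5.84 (SE 1.15, adjusted p = 0.0136), or 6.40 (SE 0.688, adjusted p = 0.00125) without SCS drought 3. The call was lost without any of the 3 SCS control libraries (adjusted p up to 0.0654). LOC8067182 stood at 4.77, 9.51 and 28.6 CPM in control and at 3620, 2924 and 705 CPM in drought. Every drought library was above every control library. The log2 fold change was 7.40 (SE 1.65, adjusted p = 0.0223), or 7.84 without SCS drought 3 and 8.43 without SCS control 3, and the call was lost without any SCS control library or without SCS drought 1 (adjusted p up to 0.0858). LOC8074864 went from 17.2, 10.8 and 23.4 CPM to 646, 587 and 81.9 CPM, again with drought 3 the lowest of the drought libraries. Its log2 fold change was 4.68 (SE 0.875, adjusted p = 0.0114), or 5.17 without SCS drought 3, and its adjusted p was 0.0502 without SCS control 1.

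The other genes of the cluster were not called. LOC8067183, matched to sorghum LTP2, stood at 1.87, 8.80 and 5.40 CPM in SCS control and at 9.12, 27.4 and 2.60 CPM in SCS drought, so that the groups overlapped (log2 fold change 1.28, SE 1.51, adjusted p = 0.637). It overlaps LOC8067184 by 828 bases on the same strand, and the labels do not say how reads in the overlap were assigned, so the split of counts between the pair is uncertain. LOC8067185 had no count in any library.

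**Figure D3:**
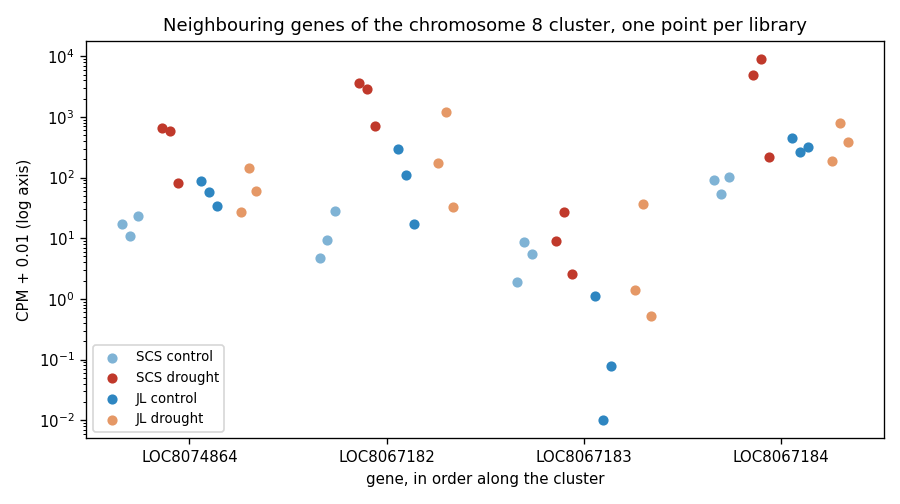
CPM plus 0.01 on a log axis for the 4 chromosome 8 cluster genes with counts, in order along the chromosome, with 1 point per library coloured by group. For LOC8074864, LOC8067182 and LOC8067184 the 3 SCS drought points lie above the 3 SCS control points, while those of LOC8067183 overlap.

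Genes elsewhere in the genome whose product names give no GPI anchor also rose in SCS. Whether their proteins carry an anchor was not tested. LOC8059497 stood at 2.45, 3.63 and 7.05 CPM in control and at 400.1, 335 and 17.7 CPM in drought. Drought 3 was the library nearest to control, and the groups did not overlap. Its log2 fold change was 5.84 (SE 1.37, adjusted p = 0.0263), or 6.39 without SCS drought 3, with an adjusted p of up to 0.0999 when a library was left out, the call being lost without SCS drought 1, SCS drought 2 or any SCS control library. LOC8060095 on chromosome 3 (67491375 to 67492121) went from 0.401, 0.459 and 0.966 CPM to 106, 298 and 18.1 CPM (log2 fold change 7.85, SE 1.81, adjusted p = 0.0249). The value was 8.37 without SCS drought 3 and 6.68 without SCS drought 2, and the call was lost without the same libraries as for LOC8059497 (adjusted p up to 0.0972).

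LOC8061116, named a probable nsLTP 2 and placed on chromosome 9 (56491461 to 56492181), held its call throughout. It was at 0, 0.125 and 0.171 CPM in SCS control, which is 6 counts over the group, and at 100.5, 153 and 61.0 CPM in SCS drought. The log2 fold change of 9.99 (SE 1.10, adjusted p = 0.00321) kept its call under all 18 alternatives, with values of 9.41 to 10.55. LOC8073000 on chromosome 6 (43649828 to 43650826) had 0 counts in all SCS control libraries and stood at 13.3, 33.1 and 2.25 CPM in SCS drought. It was at least 334-fold higher in drought, taken against a floor of 3 counts over the control group (adjusted p = 0.0153). Leaving out SCS drought 1, 2 or 3 gave bounds of 355-, 152- and 506-fold, and the call was lost without SCS control 3 (adjusted p = 0.0566).

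The next group was formed by product name alone and holds GPI-anchored, xylogen-type and related genes, nsLTP-like 1 among them. Its member with the highest level per length was LOC8060946. That gene stood at 21.4 ± 6.64 CPM per kilobase in SCS control and 72.7 ± 22.8 in SCS drought (SD, n = 3). In JL it stood at 35.6 ± 16.1 and 55.1 ± 35.0 CPM per kilobase (SD, n = 3). Xylogen proteins were described in Zinnia as arabinogalactan proteins with an nsLTP domain that act in xylem differentiation. LOC8080746 on chromosome 1 (64361925 to 64364575), named nsLTP-like 1, went from 6.82, 9.67 and 6.25 CPM in SCS control to 39.6, 57.4 and 29.7 CPM in drought. The groups did not overlap (log2 fold change 2.47, SE 0.446, adjusted p = 0.0102), with an adjusted p of 0.0540 without SCS control 3. LOC8077027 on chromosome 9 (53320849 to 53322515), matched to Arabidopsis LTPG12, went from 0.312, 1.08 and 0.114 CPM to 44.5, 3.39 and 27.2 CPM. In this gene drought 2, not drought 3, was the lowest drought library. Its log2 fold change was 5.59 (SE 1.45, adjusted p = 0.0377), between 4.89 without SCS drought 1 and 6.80 without SCS control 2, and the call was lost without SCS drought 1, JL control 2 or any SCS control library (adjusted p up to 0.137).

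LOC8081897 on chromosome 1 (74538809 to 74540300), named after an Arabidopsis xylogen-type gene, rose least, from 1.07, 2.17 and 2.73 CPM to 4.53, 8.92 and 9.36 CPM. Its log2 fold change was 1.93 (SE 0.512, adjusted p = 0.0412). The call was lost without any 1 of the SCS or JL control libraries or of the SCS drought libraries (adjusted p up to 0.136). LOC8081270 and LOC8061181 lie side by side on chromosome 1 (4456189 to 4463946, with LOC8081269) and were near 0 outside SCS drought. LOC8081270 had 0 counts in SCS control and 38, 18 and 44 counts in SCS drought, at least 35.4-fold higher (adjusted p = 0.0246). It lost its call without SCS drought 1 or any SCS control library (adjusted p up to 0.0864). LOC8061181 had 2 counts over SCS control and 26, 15 and 30 counts in SCS drought, a ratio of 37.7 with an exact 95% interval of 10.1 to 317 (adjusted p = 0.0458). Its call was lost without any 1 SCS library or any 1 JL control library (adjusted p up to 0.162).

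**Figure D4:**
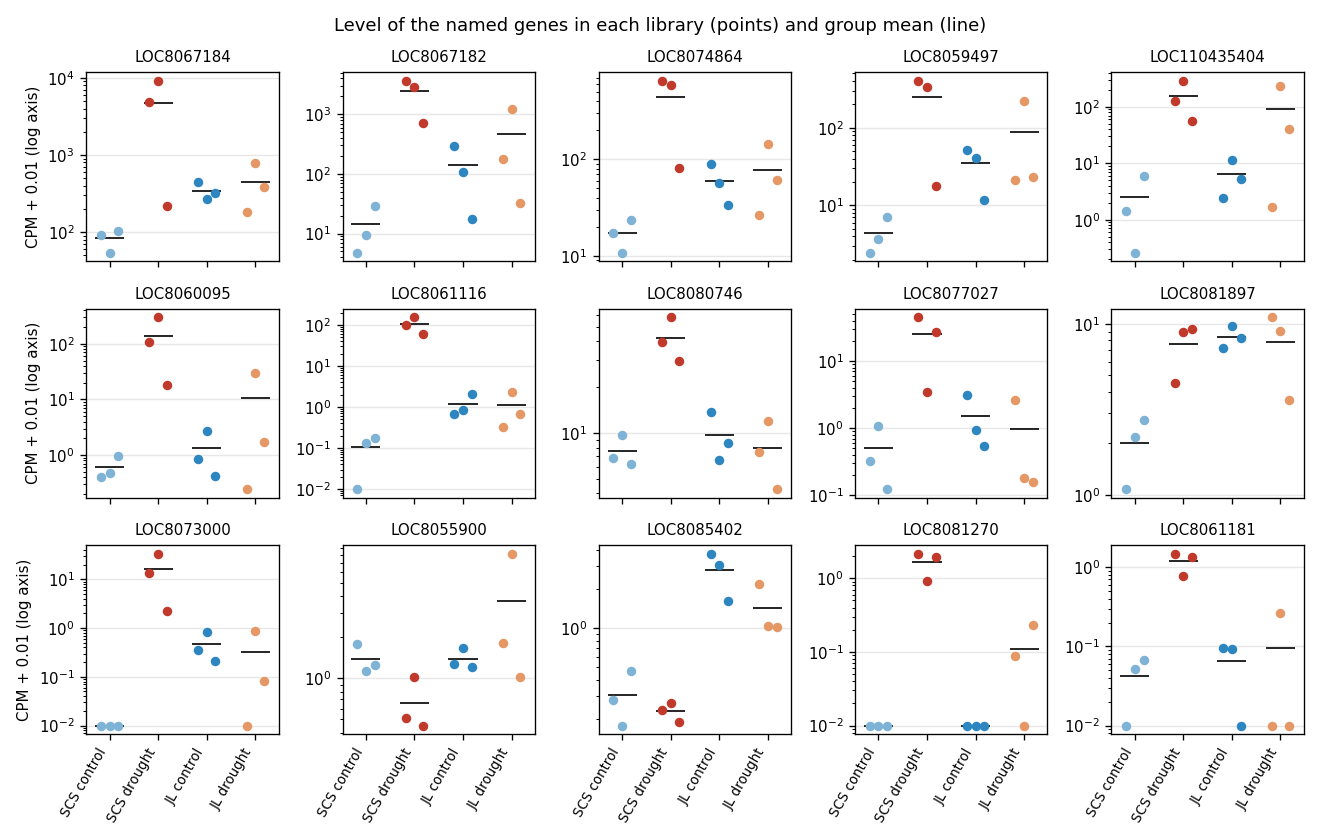
CPM plus 0.01 on a log axis for the 15 named genes in each of the 12 libraries (points, coloured by group), with the group mean as a line. In 12 of the panels all SCS drought points lie clear above SCS control and the gene was called. LOC110435404 shows the same order at an adjusted p of 0.0501.

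Of the other 10 tested genes, 5 had a positive log2 fold change in SCS and 5 a negative one. LOC110435404 stood at 1.43, 0.250 and 5.97 CPM in control and at 127, 288 and 56.1 CPM in drought. The groups did not overlap, yet the adjusted p was 0.0501 (log2 fold change 5.95, SE 1.67), and 0.0465 without SCS drought 3. LOC8060946, named GPI-anchored 1, stood at 14.6, 27.8 and 21.4 CPM in control and 94.1, 48.9 and 73.6 CPM in drought (log2 fold change 1.76, SE 0.518, adjusted p = 0.0576). LOC8074555, the neighbour of LOC8061116 on chromosome 9, stood at 1.20, 0.292 and 0.966 CPM and at 12.5, 28.2 and 11 CPM (log2 fold change 4.39, SE 1.28, adjusted p = 0.0563). In these genes too the groups did not overlap. In all, 15 of the 22 tested genes had every SCS drought library above every SCS control library, against 14.6% of all tested genes.

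Groups that did not overlap in the other direction were seen in 3 of the 22 genes, against 19.2% of all tested genes, and none of these was called by edgeR over all 12 libraries. LOC8060718, a xylogen-type gene on chromosome 2, stood at 0.847, 2.08 and 3.52 CPM in SCS control and at 0.224, 0.608 and 0.309 CPM in SCS drought (log2 fold change -2.47, SE 0.707, adjusted p = 0.0527), and DESeq2 called it lower (-2.46, adjusted p = 0.00731). LOC8067073, a 2P-type gene on chromosome 1, had 63 counts over SCS control and 1 count over SCS drought. That is a control to drought ratio of 59.3 with an exact 95% interval of 10.3 to 2379 (adjusted p = 0.139, or 0.0333 and called in an edgeR fit of the SCS libraries alone). LOC8055900, named GPI-anchored 2, stood at 1.39 ± 0.349 and 0.653 ± 0.314 CPM (SD, n = 3, adjusted p = 0.388). LOC8057859, the only tested gene named C4 after a rice anther protein, stood at 0.776 ± 0.565 and 0.536 ± 0.552 CPM (adjusted p = 0.826).

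Within SCS drought the libraries differed by gene. Drought 3 was the lowest of the group in 8 of the 12 called genes, drought 2 in 3 and drought 1 in 1. Over all tested genes without ties drought 3 was lowest in 38.5%. Seed and embryo markers were measured in the same libraries. The list of 51 such genes, 24 of them at 0 throughout, summed to 831 to 1304 CPM in SCS control and 390.5 to 1365 CPM in SCS drought, so the groups overlapped. Of its 16 tested genes 3 were called higher and 3 lower, against 4.09% and 5.41% of all tested genes. Genes within the sum moved both ways. Probable peroxygenase 4 (LOC8065741) went from 521, 519 and 833 CPM in SCS control to 54.7, 1.72 and 75.0 CPM in SCS drought. LOC8065740, of the same name, went from 174, 152 and 236 to 17.7, 1.27 and 24.9 CPM. A vicilin-like gene (LOC8081885) went from 0.802, 0.250 and 0 to 125, 109 and 5.96 CPM. Of the 16 genes named kafirin, the main storage protein of the sorghum grain, 15 had no count and the other had 3. Oleosin 1 (LOC8059544), a coat protein of seed oil bodies, stood at 0.891, 2.71 and 1.99 CPM in SCS control and 208, 97.0 and 46.1 CPM in SCS drought. The summed mesophyll markers, given above, were lower in all SCS drought libraries than in SCS control. Of 22 tested, 6 were called lower and 1 higher, against 5.41% and 4.09% of all tested genes. Their median log2 fold change was only -0.15, and few genes held most of the sum. In SCS control 1, phosphoenolpyruvate carboxylase 3 (LOC8058886) held 21535 and pyruvate, phosphate dikinase 1 (LOC110430571) 21509 of 51773 CPM. Phosphoenolpyruvate carboxylase 1 (LOC8078313) stood at 196, 452 and 64.5 CPM in SCS control and 240.4, 120.2 and 438 CPM in SCS drought. The part of these markers in the nsLTP values was not tested.

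The same comparison in JL gave 0 called members by edgeR, with 0% of all tested genes called. At an unadjusted p below 0.05 there were 2 of 22 members, both higher, against 3.71% of all tested genes (2.77% higher and 0.939% lower). DESeq2 called 0 members, among only 44 genes called in all. The median log2 fold change of the 22 genes was 0.38, against 0.04 over all tested genes. It became -0.43 without JL drought 2, and the number of genes above 0 went from 13 to 6. In 0 members were the JL drought libraries all above control, or all below it, against 2.63% and 2.56% of all tested genes.

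JL drought 2 was the highest of its group in 13 of the 20 tested members without ties, against 35.2% of all tested genes. LOC8067182 stood at 297, 109 and 17.4 CPM in JL control and at 175, 1216 and 32.6 CPM in JL drought. Drought 1 and 3 lay within the control range and drought 2 above it. Its log2 fold change was 1.75 (SE 1.28) with all libraries and -0.44 (SE 1.18) without JL drought 2. LOC8067184 stood at 448, 267 and 319 CPM in control and at 184, 781 and 387 CPM in drought (log2 fold change 0.39, SE 0.931, or -0.27, SE 1.03, without JL drought 2). LOC8074864 stood at 88.5, 57.1 and 33.6 CPM and at 26.7, 144 and 61.0 CPM. LOC8059497 stood at 52.1, 40.9 and 11.7 CPM and at 21.5, 223 and 23.1 CPM. In both, 1 drought library was above the controls and the others were not.

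LOC110435404 and LOC8067183 were the members with an unadjusted p below 0.05 in JL. LOC110435404 stood at 2.46, 11.5 and 5.19 CPM in JL control and 1.64, 235 and 40.6 CPM in JL drought (log2 fold change 3.85, SE 1.52, unadjusted p = 0.0281), or 1.73 (SE 1.32) without JL drought 2. LOC8067183 stood at 1.10, 0 and 0.0675 CPM in control and 1.41, 36.8 and 0.512 CPM in drought (5.05, SE 1.83, unadjusted p = 0.0193), or 1.31 (SE 1.40) without JL drought 2. Both values were smaller without that library, though JL drought 3 of LOC110435404 was also above all its controls. LOC8060095 was likewise highest in JL drought 2, and stood at 0.849, 2.67 and 0.405 CPM in control. Drought libraries were at 0.234, 29.3 and 1.68 CPM, where its log2 fold change went from 3.00 (SE 1.48) to -0.42 (SE 1.21) without JL drought 2. The anther and pollen markers summed to 469 CPM in JL drought 2 and to 263 and 219.8 CPM in JL drought 1 and 3. Their part in these values was not tested.

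**Figure D5:**
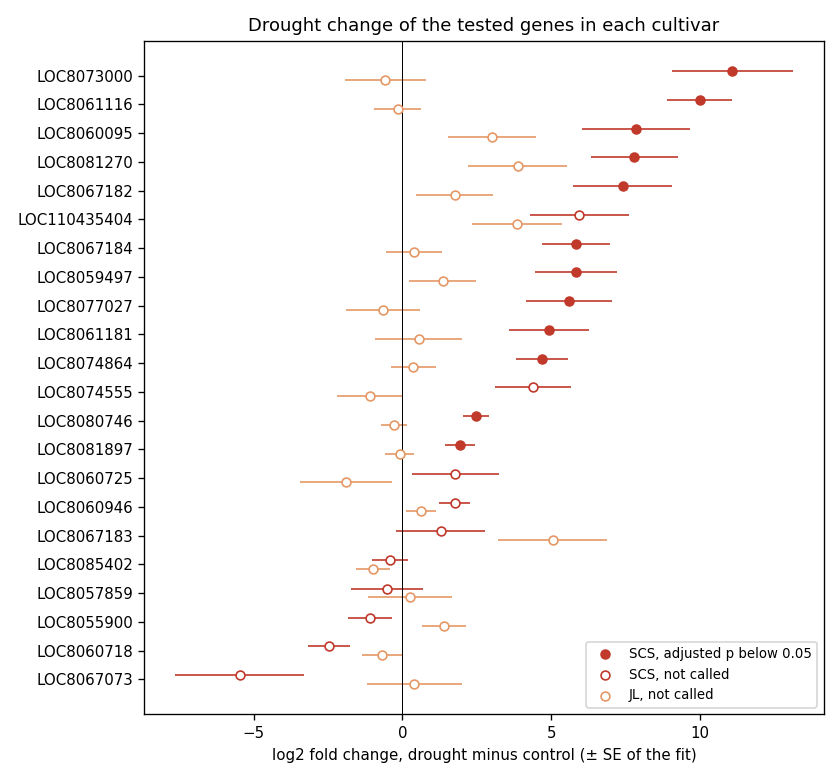
Log2 fold change of drought against control, with the SE of the fit, for the 22 tested genes in SCS (red) and JL (orange), with filled points for an adjusted p below 0.05. The 12 filled points are all SCS increases. The values of LOC8073000 and LOC8081270, whose control counts were 0 in SCS, depend on the prior count of the fit and are no measure of size.

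Whether the drought change differed between the cultivars was tested as an interaction (JL change less SCS change). By edgeR, 1 of 22 members was called, with a smaller change in JL, against 0.187% of all tested genes called in that direction, 0.326% in the other and 0.513% in either. This was LOC8061116, which stood at 0.679, 0.834 and 2.09 CPM in JL control and at 0.313, 2.31 and 0.659 CPM in JL drought. Its levels in JL thus overlapped, while all SCS drought libraries were above all other libraries. The JL change was -0.16 (SE 0.788) and the interaction -10.15 (SE 1.3, adjusted p = 0.0193), with -9.48 to -11.30 over 17 alternatives. The call was lost without JL control 3, JL drought 3 or any SCS control library (adjusted p up to 0.0758).

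For the other members the difference between the cultivars did not pass the test. At an unadjusted p below 0.05 the interaction was negative in 11 members and positive in 1, against 5.83% and 9.60% of all tested genes (15.4% in all). DESeq2 called 9 members, all negative, among 1357 genes called in all (107 by edgeR). LOC8080746 stood at 13.7, 6.59 and 8.57 CPM in JL control and 7.42, 12 and 4.25 CPM in JL drought, and its interaction was -2.76 (SE 0.612, adjusted p = 0.0790). That became -3.19 (adjusted p = 0.0443) without JL drought 2 and -2.96 (adjusted p = 0.0491) without SCS drought 3. For LOC8067184 the interaction was -5.45 (SE 1.40, adjusted p = 0.110), or -6.01 (SE 0.833, adjusted p = 0.00888) without SCS drought 3. For LOC8074864 it was -4.30 (SE 1.11, adjusted p = 0.110), or -4.79 (adjusted p = 0.0306) without SCS drought 3. Both left-out libraries were singled out by the levels of these same genes, so calls gained without them are no separate support. In all, 3 members were called without JL drought 2 and 5 without SCS drought 3, while 0 were called without JL control 3, JL drought 3 or any SCS control library. Over all tested genes the calls went from 107 to 224 and 424 in the former fits, and to between 8 and 15 in the latter.

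Under normal water supply, 0 members were called between JL and SCS by edgeR, where 0.0240% of all tested genes were called (0.00958% higher and 0.0144% lower). At an unadjusted p below 0.05, 8 members were higher in JL and 0 lower, against 6.87% and 7.55% of all tested genes (14.4% in all), and DESeq2 called 5, all higher in JL, among 700 genes called in all (5 by edgeR). In 8 members every JL control library was above every SCS control library, against 12.3% of all tested genes, and in 1 every JL library was below, against 15.4%. LOC8085402, an nsLTP 1 gene on chromosome 3 (66179178 to 66180039), stood at 3.74, 3.09 and 1.62 CPM in JL control and at 0.267, 0.167 and 0.455 CPM in SCS control (log2 fold change 3.23, SE 0.637, adjusted p = 0.284). LOC8074555 stood at 7.90, 192 and 99.9 CPM in JL control, where SCS control was at 1.20 CPM or less (6.92, SE 1.43, adjusted p = 0.284). Its JL control libraries were themselves far apart. LOC8081897 stood at 7.22, 9.76 and 8.23 CPM in JL control (2.08, SE 0.515, adjusted p = 0.286). LOC8061116 was also higher in JL control without overlap (3.57, SE 0.952, adjusted p = 0.293). Of the chromosome 8 genes, LOC8067184 was in the same order, at 345 ± 93.4 in JL and 82.7 ± 25.2 CPM in SCS. So was LOC8074864, at 59.7 ± 27.5 and 17.1 ± 6.29 CPM (SD, n = 3), with adjusted p of 0.358 and 0.334. The control groups of LOC8067182 overlapped, at 297, 109 and 17.4 CPM in JL and 4.77, 9.51 and 28.6 CPM in SCS (adjusted p = 0.327). LOC8067183 had the opposite order, with SCS control libraries of 1.87 to 8.80 CPM above JL control libraries of 0 to 1.10 CPM (adjusted p = 0.353).

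Under drought, 7 members were called between the cultivars, against 18.8% of all tested genes. Of these 5 were lower in JL (7.55% of all tested genes) and 2 were higher (11.2%). At an unadjusted p below 0.05 there were 13 (34.1% of all tested genes), 10 of them lower and 3 higher (15.4% and 18.7%). In 7 members every JL drought library was below every SCS drought library, and in 3 above (15.6% and 17.2% of all tested genes). DESeq2 called 2 higher and 9 lower, among 6055 genes called in all (3916 by edgeR). LOC8061116 had a log2 difference, JL less SCS, of -6.58 (SE 0.921, adjusted p = 0.00207), and LOC8080746 of -2.42 (SE 0.447, adjusted p = 0.00616). Both kept the call under all 18 alternatives, at -7.72 to -6.14 and -2.85 to -2.12. LOC8077027 stood at 2.58, 0.171 and 0.146 CPM in JL drought against 3.39 to 44.5 CPM in SCS drought (-4.68, SE 1.39, adjusted p = 0.0403). It was -7.24 without JL drought 1 and -3.98 without SCS drought 1. LOC8073000 stood at 0, 0.856 and 0.0732 CPM against 2.25 to 33.1 CPM (-5.71, SE 1.48, adjusted p = 0.0309), or -8.50 without JL drought 2, -6.22 without SCS drought 3 and -4.64 without SCS drought 2. The groups of these genes did not overlap. LOC8067184 was called at -3.39 (SE 1.02, adjusted p = 0.0424), although SCS drought 3 (215 CPM) lay within the JL drought range of 184 to 781 CPM. It was at -3.95 (adjusted p = 0.00569) without SCS drought 3, -4.05 without JL drought 2 and -2.49 without SCS drought 2.

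The genes higher in JL drought were weakly expressed. LOC8085402 stood at 2.19, 1.03 and 1.02 CPM in JL drought and 0.224, 0.253 and 0.177 CPM in SCS drought (log2 difference 2.66, SE 0.633, adjusted p = 0.0175). It showed the same order under normal water supply. LOC8055900 on chromosome 1 (67495923 to 67497525) stood at 1.80, 8.13 and 1.02 CPM in JL drought and 0.504, 1.01 and 0.441 CPM in SCS drought (2.47, SE 0.765, adjusted p = 0.0471). Its highest value was again in JL drought 2, without which the difference was 1.11 and not called (adjusted p = 0.237). The number called was 8 without JL drought 2 and 6 without SCS drought 3. It was 4 without SCS drought 2, JL drought 3, JL control 2 or SCS control 1, and 2 without SCS drought 1. Over all tested genes these fits called, in that order, 3113, 3507, 3194, 2731, 3096, 2942 and 1811, against 3916 with all libraries. LOC8077027 lost its call without JL control 2, JL drought 2 or 3, SCS control 1, or SCS drought 1 or 3 (adjusted p up to 0.117). LOC8073000 lost it without JL drought 1 or 3 or SCS drought 1 or 2 (up to 0.0850), and LOC8085402 without JL drought 1 or SCS drought 1 (up to 0.0650). LOC8067184 lost it without any 1 library other than SCS drought 3 (up to 0.115), and LOC8055900 without any 1 library other than JL drought 1 or 3 (up to 0.237).

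The family is partly clustered in the genome, and some clusters held both called and uncalled genes. With starts within 100 kb of each other, 21 of the 48 genes fell in 7 clusters. The chromosome 2 cluster (4672362 to 4752212) holds 5 genes, of which LOC8060718 and LOC8060725 were tested and neither was called in SCS drought by edgeR, while DESeq2 called LOC8060718 lower. LOC8060725 stood at 2.72, 6.96 and 0.114 CPM in SCS control and 16.7, 5.07 and 11.7 CPM in SCS drought (adjusted p = 0.486). Its neighbours LOC8060723 and LOC8081184, which failed the filter, had 0 and 3 counts over SCS control and 23 and 21 over SCS drought. On chromosome 6, LOC8073001 lies next to LOC8073000 and also failed the filter, with 1, 0 and 1 counts in SCS control and 24, 49 and 7 counts in SCS drought. On chromosome 9, LOC8061116 and LOC8074555 lie within 3.71 kb. Their levels in JL control were 1.67 ± 1.07 and 116 ± 107 CPM per kilobase, and in SCS drought 145 ± 63.7 and 19.9 ± 11 CPM per kilobase (SD, n = 3). The higher mean of the pair was that of LOC8074555 in JL control and that of LOC8061116 in SCS drought.

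By Pfam domain in the deposited table, 7 of the 48 genes carry the domain of the protease inhibitor, seed storage and LTP family, 30 the probable lipid transfer domain, and 11 none. Of the 5, 13 and 4 of these that were tested, 3, 8 and 1 rose in SCS drought, where 4.09% of all tested genes rose. The last class rests on 1 called gene, LOC8059497. No difference between the classes was tested.

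Other genes of lipid transfer and of the cuticle were listed by product name. The relatives hold 39 genes, among them DIR1 genes (DIR1 of Arabidopsis acts in systemic acquired resistance), YLS3 and DC2.15 genes. Of 11 tested, 1 rose and 1 fell in SCS drought, their median log2 fold change being 0.83. Over all tested genes 4.09% rose and 5.41% fell, which is also the background for the cuticle list below. The gene that rose was a cortical cell-delineating protein gene, LOC8059999, with 0 CPM in SCS control and 3.81 ± 2.05 CPM in SCS drought (SD, n = 3, adjusted p = 0.0266). The gene that fell, LOC8080324, is a glycolipid transfer protein, matched by its letters and not of the nsLTP fold. It went from 36.6 ± 19.0 to 10.8 ± 1.12 CPM (log2 fold change -1.76, adjusted p = 0.0267). Names with SDIR1 were also matched by their letters, through DIR1. Without glycolipid transfer and SDIR1 names 1 of 7 rose and 0 fell. The cuticle list holds 104 genes matched by product names of wax and cutin synthesis and export. Of 62 tested, 1 rose and 2 fell in SCS drought (median -0.03). Some matches are named 1-acyl-sn, chloroplastic or peroxisomal and are off target. Without them 93 genes remained, and of 52 tested 1 rose and 1 fell (median -0.06). Cytochrome P450 86B1 (LOC8067126), of a family that hydroxylates fatty acids for cutin and suberin, went from 0.0149 ± 0.0257 to 5.85 ± 3.12 CPM (log2 fold change 8.0, SE 1.51, adjusted p = 0.0121). The 3-ketoacyl-CoA synthase 5 gene (LOC8077689), of the elongation of wax precursors, fell from 59.9 ± 8.11 to 9.69 ± 3.16 CPM (log2 fold change -2.63, SE 0.421, adjusted p = 0.00688). The cuticle calls were 7 higher and 7 lower by DESeq2, 7 and 2 with the SCS libraries fitted alone, 5 and 3 without JL drought 2, and 0 and 1 without SCS control 3. For the relatives the count of 2 fell to 0 or 1 without any 1 SCS library other than SCS drought 3, and was 4 by DESeq2.

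Neither list had a gene called for drought in JL or for the interaction by edgeR. At an unadjusted p below 0.05 there were 3 cuticle genes and 0 relatives in JL, and 4 and 2 for the interaction. DESeq2 called 0 and 0 in JL and 1 and 1 for the interaction, among 44 and 1357 genes called in all. Between JL and SCS under drought, 19 of 62 cuticle genes were higher in JL and 3 lower (median 1.03). Over all tested genes the shares were 11.2% and 7.55%. Without the off-target cuticle matches, 17 of 52 were higher and 3 lower. The 22 cuticle calls fell to 8 without SCS drought 1, 11 without SCS drought 3 and 8 with the drought libraries fitted alone. Over all tested genes these fits called 1811, 3507 and 1247, against 3916 in the main fit. Of the 11 tested relatives, 2 were higher in JL drought and 2 lower. Without glycolipid transfer and SDIR1 names, 0 of 7 were higher and 2 lower. The difference between the lists was not tested.

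Over the 12 libraries, the genes outside the family with log2 CPM most like that of LOC8067184 were LOC110430205 (uncharacterised, Pearson r = 0.981), LOC8064072 (a cyclin T1, 0.974), LOC8071812 (an NAD(P)H-hydrate dehydratase, 0.969), LOC8072879 (NUCLEAR FUSION DEFECTIVE 4, 0.960) and LOC8073416 (a PLAT domain protein, 0.959). These 5 were ranked among all tested genes, and the values are a description over libraries that all genes share. Within the family, LOC8074864 had a Pearson r of 0.966 with LOC8067184, LOC8059497 of 0.919 and LOC8073000 of 0.898, while LOC8060718 had -0.516.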

How the data were processed

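Per the submitters' processing notes the tools included StringTie 1.3.3b, STAR and HISAT2 2.0.4, whose roles the notes do not state. The counting program, the strand option and the build used were not given in the sources used here. Per the labels, libraries were strand-specific. The authors deposited whole-number counts per gene, which were not normalised, for 12 leaf libraries. The gene lengths and other descriptive columns are those of the deposited table. By identifier, start and end, all 48 members were found in the RefSeq gene table for the assembly Sorghum_bicolor_NCBIv3. The deposited FPKM values were not used.

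Counts were filtered with edgeR's filterByExpr (20873 genes kept, 13024 removed), scaled with TMM (factors 0.757 to 1.41) and fitted with the edgeR 4.0.16 quasi-likelihood F test (R 4.3.3) in which each of the 4 groups had its own mean and all 12 libraries shared the dispersion (biological coefficient of variation 63.3%). P-values were Benjamini-Hochberg adjusted over all tested genes in each of 5 comparisons. The fit was also run on simulated counts with the same dispersion for all genes, so that run does not cover libraries that stand apart. Libraries of the same group were further apart than counting noise alone gives (chi-square of 39.8 to 276 per gene). Bounds against a group at 0 use a floor of 3 counts over the group, and intervals are exact binomial at 95%, both covering counting error only. Alternatives were DESeq2 1.42.0, RLE scaling, other filters, the compared libraries alone, a replicate block and leaving out each library. The full values named are those of members called in any comparison and of the 5 with the highest level per length, with other members named as their counts required. Members and lists were chosen with earlier results of these data known.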

Additional observations from a re-analysis of the deposited data

Results flagged for a closer look

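LOC8061116, the probable nsLTP 2 gene on chromosome 9, changed differently with drought in the cultivars by a test of the difference itself. The JL change less the SCS change was -10.15 on the log2 scale (SE 1.3, adjusted p = 0.0193 by edgeR). All 3 SCS drought libraries stood above their controls, and the JL groups overlapped. The edgeR call was lost without JL control 3, JL drought 3 or any SCS control library (adjusted p up to 0.0758). The size rests on 0, 3 and 3 counts in SCS control. It also holds a difference between the control groups, where every JL library was above every SCS library. That difference was 3.57 (SE 0.952, adjusted p = 0.293 by edgeR), and 3.69 by DESeq2, which called it (adjusted p = 0.0115).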

How the results depend on the processing

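Of the 20 calls of single genes, 3 held under every alternative, namely LOC8061116 in SCS drought and LOC8061116 and LOC8080746 between the cultivars under drought. Of 355 recomputed values of these calls, 0 changed direction and 102 lost the call. The count of members called in SCS drought (12) ranged from 2 to 14 when 1 library was left out and was 6 with the replicate block. For the interaction (1) it ranged from 0 to 5 with 1 library left out and was 9 by DESeq2. Between JL and SCS control (0) it was 5 by DESeq2. Between JL and SCS drought (7) it ranged from 2 to 8 with 1 library left out, was 11 by DESeq2 and 2 with the compared libraries alone. Over all genes that comparison had 3916 calls in the main fit, 6055 by DESeq2 and 1247 with the compared libraries alone. The causes were not tested, beyond the smaller number of libraries in such fits. Over all genes in SCS drought, 1984 were called by edgeR, 4065 by DESeq2 and 1399 with the replicate block, which left 13 of 22 cuticle calls between JL and SCS drought. Same-numbered libraries share only a number: their deviations from the group means correlated at -0.491 to 0.383, negatively in 7 of 12 pairs. RLE scaling and the other filters kept each count of called members within 1.5 times, but of the 2 members higher in JL drought the stricter filter removed both, and 1 was called with no filter. Genes with few counts are limited by depth, as a floor of 3 counts shows for LOC8081270.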
